A study of Saccharomyces cerevisiae with 4 samples.

Results

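The cell wall genes of budding yeast, Saccharomyces cerevisiae, were followed through a rapamycin treatment in a ptc1 strain and in a wild-type strain. They are 40 of the 6212 rows of the expression table and were chosen by name, as genes of wall proteins, of enzymes that make or remodel wall glucan, chitin and mannan, and of reporters of wall stress. The choice was made with earlier results of these data known. Of the 40 genes, 39 stood in the table under their own systematic name, and CWP2 was read from the row with its older name.

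The ptc1 strain lacks the type 2C protein phosphatase Ptc1, and the wild type carries it. Cultures of both strains in log phase were grown at 28 °C in YPD rich medium and received rapamycin at 200 ng/ml for 1 h, while mock-treated cells of the same strain received the ethanol and Tween-20 vehicle. Each 2-colour array set rapamycin-treated against mock-treated cells of 1 strain, and there were 2 arrays per strain with the dyes swapped. The labels describe the 2 arrays of a strain as a dye swap of the same RNA, so each strain counts as 1 biological sample and no test was possible. Every ± below is the SD of 2 arrays and holds technical spread alone.

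The yeast wall is a mesh of β-1,3-glucan to which β-1,6-glucan, chitin and heavily mannosylated proteins are joined. Most of its proteins hang on β-1,6-glucan through the remnant of a glycosylphosphatidylinositol (GPI) anchor, and the PIR proteins (proteins with internal repeats) are bound directly to β-1,3-glucan. Wall damage signals through the cell wall integrity pathway, a kinase cascade that ends in the MAP kinase Slt2 and the transcription factor Rlm1. Rapamycin inhibits the TORC1 kinase complex, and Ptc1 is known as a negative regulator of MAP kinase signalling.

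Each value is a log ratio, read here as log2 of rapamycin over mock, although its base and direction are unstated. The direction is likely, because the study's design names treated against mock-treated cells and because the amino acid permease gene GAP1, known to rise with rapamycin, stood at 4.77 ± 0.69 in ptc1 and 5.60 ± 0.09 in the wild type. The words rose and fell are kept for genes past 2-fold, a mean log2 ratio of size 1 or more, with 1 sign on both arrays of a strain. PTC1 itself had no value on either ptc1 array and values of 0.00 and −0.53 on the wild-type arrays. The arrays held between 5006 and 5418 rows with a value, their medians lay between −0.0015 and 0.131, and precision is limited by the small number of arrays. The median SD of a row was 0.28 in ptc1 and 0.15 in the wild type.

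Of the 40 wall genes, 33 had a value on all 4 arrays. The glucan synthase gene FKS1, the glucanase gene BGL2 and the chitin synthase genes CHS1 and CHS3 had values on both ptc1 arrays and on neither wild-type array. PIR1 lacked ptc1 array 1, ECM33 lacked wild-type array 1, and FLO11 had 1 value per strain. These 7 genes took no part in the strain comparison.

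Wall genes mostly rose or kept small ratios, and few fell. In ptc1, 9 of 38 measured wall genes rose, where 10.5% of all measured rows rose, and 1 fell, where 12.4% of all rows fell. In the wild type, 13 of 34 rose, where 13.8% of all rows rose, and 1 fell, where 14.9% of all rows fell. These counts describe genes chosen with earlier results of these data known and were not tested. The median log2 ratio of the wall genes was 0.57 in ptc1 and 0.66 in the wild type, and that of all rows was 0.08 in ptc1 and 0.07 in the wild type. The genes that rose in ptc1 were PIR3, HSP150, PST1, SED1, SPI1, YGP1, SRL3, PRM5 and DFG5. All 9 also rose in the wild type, where CCW14, GSC2, EXG1 and CRH1 rose too. GAS3 was the gene that fell in both strains, and 19 wall genes measured in both strains passed the rule in neither. Read on 1 array, 6 genes were past 2-fold downwards without ptc1 array 1, PIR1 with its single value among them, and the ptc1 median was then 0.32. Without wild-type array 1 there were 2, GAS3 and FLO11 with its single value. Shares of all rows on single arrays were not worked out.

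**Figure D1:**
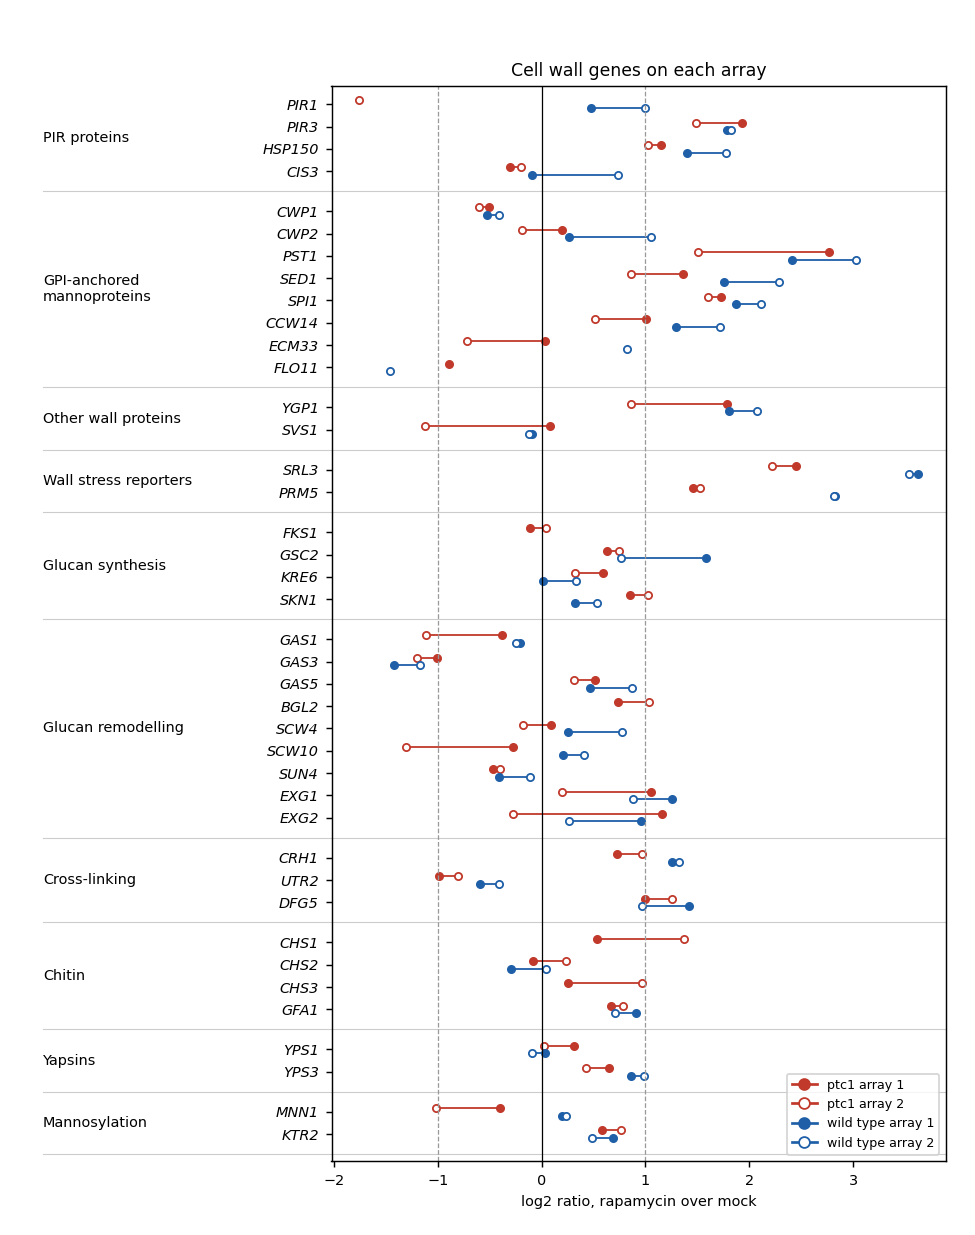
Log2 ratio of rapamycin over mock (x axis) of each of the 40 wall genes, grouped by role, with the ptc1 arrays in red above the wild-type arrays in blue. Filled points are array 1, open points array 2, lines join arrays of a strain, and dashed lines mark 2-fold. The reporters SRL3 and PRM5 show ptc1 points far to the left of the wild-type points, while the GAS3 points of both strains lie below −1.

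SRL3 (YKR091W) and PRM5 (YIL117C) are known as transcripts raised by the cell wall integrity pathway rather than as wall components. SRL3, a gene found as a suppressor of rad53 lethality, had log2 ratios of 2.45 and 2.22 on the ptc1 arrays, against 3.62 and 3.54 on the wild-type arrays. That is 5.05-fold in ptc1 and 12.0-fold in the wild type. The arrays of the strains did not overlap, and SRL3 held the highest mean ratio of the 40 wall genes in both strains. PRM5, which encodes a membrane protein, had 1.46 and 1.53 in ptc1, against 2.82 and 2.82 in the wild type, or 2.82-fold in ptc1 and 7.06-fold in the wild type. For both genes the spread of the arrays was small beside the gap between the strains.

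Among the 4 PIR genes the ratios split. PIR3 (YKL163W) had 1.93 and 1.49 in ptc1, against 1.78 and 1.83 in the wild type, and the arrays of the strains overlapped. HSP150 (YJL159W), also called PIR2, had 1.15 and 1.02 in ptc1, against 1.40 and 1.78 in the wild type, so both ptc1 arrays lay under both wild-type arrays. CIS3 (YJL158C), also called PIR4, passed the rule in neither strain, with −0.30 and −0.20 in ptc1 and −0.09 and 0.73 in the wild type, where its arrays were far apart. PIR1 (YKL164C) had a single value of −1.75 in ptc1, against 0.48 and 1.00 in the wild type. The ptc1 value was the lowest of any of the 40 wall genes on any array, and no second array checks it. The wild-type mean of 0.74 did not pass the rule.

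Of the 8 GPI-anchored mannoprotein genes, 3 of 7 measured rose in ptc1, where 10.5% of all rows rose, and 4 of 6 measured rose in the wild type, where 13.8% of all rows rose. PST1 (YDR055W), whose transcript is a common read-out of wall stress, had 2.77 and 1.51 in ptc1, against 2.42 and 3.03 in the wild type. Its ptc1 arrays differed by more than 1 and straddled the lower wild-type value. SED1 (YDR077W), a major wall protein of stationary cells, had 1.36 and 0.86 in ptc1, against 1.76 and 2.29 in the wild type, or 2.16-fold in ptc1 and 4.07-fold in the wild type. Both ptc1 values lay under both wild-type values, and without ptc1 array 1 the SED1 rise in ptc1 (0.86) missed 2-fold.

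SPI1 (YER150W), a stress-responsive relative of SED1, had 1.73 and 1.60 in ptc1, against 1.87 and 2.12 in the wild type. CCW14 (YLR390W-A), which encodes an inner wall protein, had 1.01 and 0.52 in ptc1, against 1.29 and 1.72 in the wild type, and rose in the wild type. A second row of the table that carries an older name of CCW14 had 1.06 and 0.69 in ptc1, against 1.28 and 1.65 in the wild type, so both rows of this gene gave like values.

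The other GPI genes did not pass the rule. CWP1 (YKL096W) had ratios below 0 on all arrays, with means of −0.55 ± 0.07 in ptc1 and −0.47 ± 0.08 in the wild type. CWP2 (YKL096W-A), a small abundant mannoprotein gene, had 0.20 and −0.19 in ptc1, against 0.26 and 1.06 in the wild type. ECM33 (YBR078W), a relative of PST1 needed for wall integrity, had 0.03 and −0.72 in ptc1 and a single value of 0.82 in the wild type. The flocculin gene FLO11 (YIR019C), which serves adhesion and filamentous growth, had single values of −0.89 in ptc1 and −1.46 in the wild type.

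Of the other wall proteins, YGP1 (YNL160W), a secreted glycoprotein gene known to respond to nutrient limitation, had 1.79 and 0.86 in ptc1, against 1.80 and 2.08 in the wild type. The higher ptc1 value nearly touched the lower wild-type value, and without ptc1 array 1 its rise in ptc1 (0.86) missed 2-fold. SVS1 (YPL163C), linked to vanadate resistance, had 0.08 and −1.12 in ptc1, against −0.09 and −0.12 in the wild type, and its ptc1 arrays lay on both sides of the wild type.

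Of the 4 genes of glucan synthesis, 0 of 4 measured rose in ptc1, where 10.5% of all rows rose. In the wild type 1 of 3 measured, GSC2, rose, where 13.8% of all rows rose. GSC2 (YGR032W), which encodes the alternative catalytic subunit Fks2 of β-1,3-glucan synthase and is known to be raised under wall stress, had 0.63 and 0.74 in ptc1, against 1.58 and 0.76 in the wild type. It rose in the wild type, where its arrays were far apart, and without wild-type array 1 the value of 0.76 missed 2-fold. FKS1 (YLR342W), the main subunit of growing cells, had −0.11 and 0.05 in ptc1. KRE6 (YPR159W) and SKN1 (YGR143W), related genes of β-1,6-glucan synthesis, passed the rule in neither strain. SKN1 had 0.85 and 1.02 in ptc1, against 0.32 and 0.53 in the wild type, and KRE6 had 0.59 and 0.32 in ptc1, against 0.02 and 0.34 in the wild type.

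Over the 8 of 9 glucan remodelling genes measured on all arrays, the median ratio was −0.24 in ptc1 and 0.41 in the wild type. GAS3 (YMR215W), of the GAS family of β-1,3-glucanosyltransferases, fell, with −1.01 and −1.20 in ptc1 and −1.42 and −1.17 in the wild type. GAS1 (YMR307W), the main member of that family in growing cells, had −0.38 and −1.12 in ptc1, against −0.21 and −0.25 in the wild type. GAS5 (YOL030W) had means of 0.41 ± 0.15 in ptc1 and 0.67 ± 0.29 in the wild type. GAS5 lay above GAS1 and GAS3 on every array.

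The exoglucanase gene EXG1 (YLR300W) had 1.05 and 0.20 in ptc1, against 1.25 and 0.88 in the wild type, and its rise in the wild type missed 2-fold without wild-type array 1 (0.88) or with arrays scaled to equal spread (0.96). Its relative EXG2 (YDR261C) had 1.16 and −0.27 in ptc1, against 0.96 and 0.26 in the wild type. The ptc1 SD of EXG2, 1.02, was the largest among the 40 wall genes. BGL2 (YGR282C), a major glucanase of the wall, had 0.74 and 1.03 in ptc1. SUN4 (YNL066W), which acts in septum formation, had means of −0.44 ± 0.05 in ptc1 and −0.26 ± 0.21 in the wild type.

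SCW4 (YGR279C) and SCW10 (YMR305C) encode related glucanase-like wall proteins. SCW10 had −0.28 and −1.31 in ptc1, against 0.21 and 0.40 in the wild type, so its sign differed between the strains on all arrays, as it did for the mannosyltransferase gene MNN1 (YER001W). Below 0 on both ptc1 arrays and above 0 on both wild-type arrays were 0.942% of all rows. SCW4 had 0.09 and −0.18 in ptc1, against 0.25 and 0.78 in the wild type. In both genes the ptc1 values lay under the wild-type values.

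The cross-linking enzymes Crh1 and Utr2 join chitin to β-glucan, and their genes had ratios of opposite sign on every array. CRH1 (YGR189C) had 0.73 and 0.96 in ptc1, against 1.25 and 1.33 in the wild type, and rose in the wild type. UTR2 (YEL040W) had −0.98 and −0.80 in ptc1, against −0.59 and −0.41 in the wild type. For both genes the ptc1 arrays lay below the wild-type arrays. DFG5 (YMR238W), a GPI protein gene needed for wall assembly, had 0.99 and 1.26 in ptc1, against 1.42 and 0.97 in the wild type, and its rise depended in each strain on the array used, missing 2-fold without ptc1 array 2 (0.99) and without wild-type array 1 (0.97).

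Of the 40, the chitin genes GFA1 and CHS2, the yapsin genes YPS1 and YPS3 and the mannosyltransferase genes MNN1 and KTR2 passed the 2-fold rule in neither strain, and CHS1 and CHS3, with no wild-type value, did not pass it in ptc1. GFA1 (YKL104C), whose enzyme opens the path to the chitin precursor UDP-N-acetylglucosamine, had 0.67 and 0.79 in ptc1, against 0.91 and 0.70 in the wild type. CHS1 (YNL192W), of wall repair at cell separation, had 0.54 and 1.37 in ptc1, and CHS3 (YBR023C), of the bud-neck ring and the lateral wall, had 0.26 and 0.97 in ptc1. CHS2 (YBR038W), of the primary septum, had means of 0.08 ± 0.22 in ptc1 and −0.13 ± 0.23 in the wild type, within the spread of the arrays.

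The yapsins are GPI-anchored aspartyl proteases of the cell surface. YPS3 (YLR121C) had 0.65 and 0.43 in ptc1, against 0.86 and 0.99 in the wild type. YPS1 (YLR120C) had 0.31 and 0.03 in ptc1, against 0.04 and −0.09 in the wild type, so YPS3 was above 0 on all arrays and YPS1 was not. MNN1, which encodes the α-1,3-mannosyltransferase that caps mannan chains, had −0.40 and −1.02 in ptc1, against 0.20 and 0.24 in the wild type. KTR2 (YKR061W), of a family of mannosyltransferases, had means of 0.68 ± 0.13 in ptc1 and 0.59 ± 0.14 in the wild type.

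The strain comparison asked whether the response of these genes depends on Ptc1. Across the 33 genes measured on all 4 arrays, the ratio was lower in ptc1 in 27 and higher in 6, where it was lower in 50.4% and higher in 49.6% of all rows. The median of ptc1 minus wild type was −0.42 for the wall genes, and −0.003 for all rows. Of all rows that rose in the wild type, 541 of 646 were lower in ptc1, with a median difference of −0.31. All 13 wall genes that rose there were lower, with a median difference of −0.50. With arrays scaled to equal spread, PIR3 (0.06) and DFG5 (0.03) of these were above 0, and the others stayed below 0. Choosing rows by a high wild-type ratio itself favours a lower difference, because the same wild-type values are subtracted. Of all rows that passed the 2-fold rule in neither direction in the wild type, 1724 of 3325 were lower (median −0.01). Among such wall genes, 14 of 19 were lower (median −0.26). The wall genes were chosen with results of these data known, and these shares describe them without a test. Over the 4 pairings of a ptc1 with a wild-type array the median of the wall genes ranged from −0.56 to −0.16, and without ptc1 array 2 it was −0.20. A ratio combines treated and mock-treated cells, so a strain difference that lies in the treated cells and one that lies in the mock-treated cells cannot be told apart.

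**Figure D2:**
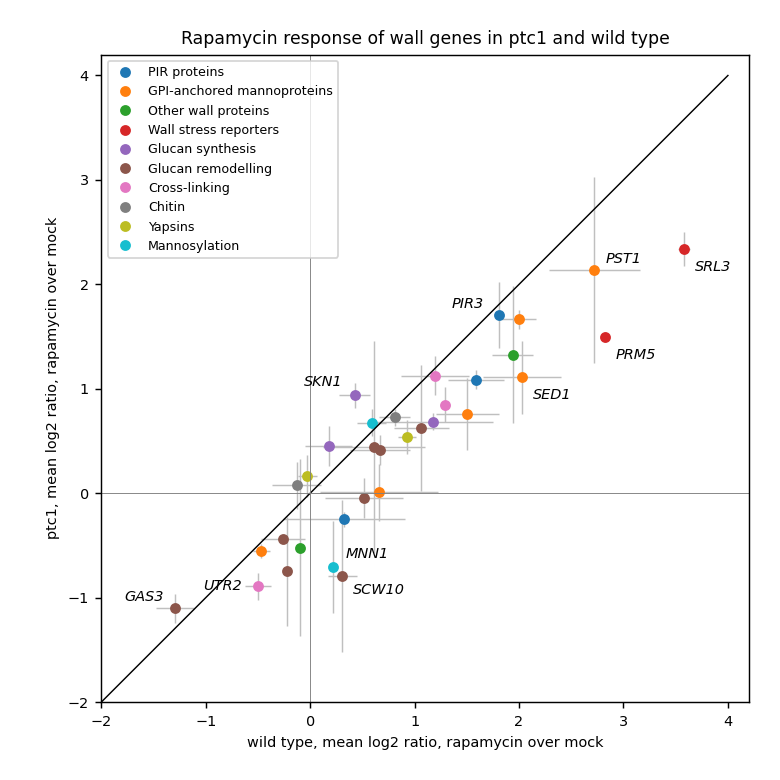
Mean log2 ratio in ptc1 (y axis) against the mean in the wild type (x axis) of the 33 wall genes measured on all 4 arrays, coloured by role. Bars are the SD of 2 arrays and the diagonal marks equal ratios: 27 genes lie below it, SRL3 and PRM5 well below, and SKN1 is among the 6 above it.

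A strain difference was called where it was at least 1 in size and had 1 sign in all 4 array pairs. PRM5 (−1.33 ± 0.05), SRL3 (−1.24 ± 0.17) and SCW10 (−1.10 ± 0.74) passed it, where the ± combines the SDs of both strains. These are 3 of 33 genes, where 0.921% of all rows passed in this direction. In the other direction 0 wall genes passed, against 0.964% of all rows. The SRL3 difference was −0.997 with arrays scaled to equal spread, just short of the rule, and the SCW10 difference was −0.58 without ptc1 array 2. The count of lower genes among the 33 was 8 without ptc1 array 1, 5 without wild-type array 1 and 2 without ptc1 array 2. With an array left out, fewer array pairs have to share a sign, so the sign condition is looser for every row. The share of all rows was not worked out for these settings.

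With no condition on size, both ptc1 arrays lay below both wild-type arrays in 17 of the 33 genes, where 16.5% of all rows did so. SKN1 (0.51 ± 0.19) was the gene whose ptc1 arrays both lay above, where 18.2% of all rows did so. After the called genes, the lower genes with the largest differences were MNN1 (−0.93 ± 0.44), SED1 (−0.92 ± 0.51), CCW14 (−0.74 ± 0.46), CWP2 (−0.65 ± 0.62), YGP1 (−0.61 ± 0.68), CIS3 (−0.57 ± 0.59) and SCW4 (−0.56 ± 0.42). The other lower genes, between −0.52 and −0.33, were GAS1 (−0.52 ± 0.52), HSP150, GSC2 (−0.49 ± 0.58), CRH1, UTR2, YPS3 and SPI1. In CWP2, YGP1, CIS3, GAS1 and GSC2 the combined SD was as large as the difference or nearly so.

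**Figure D3:**
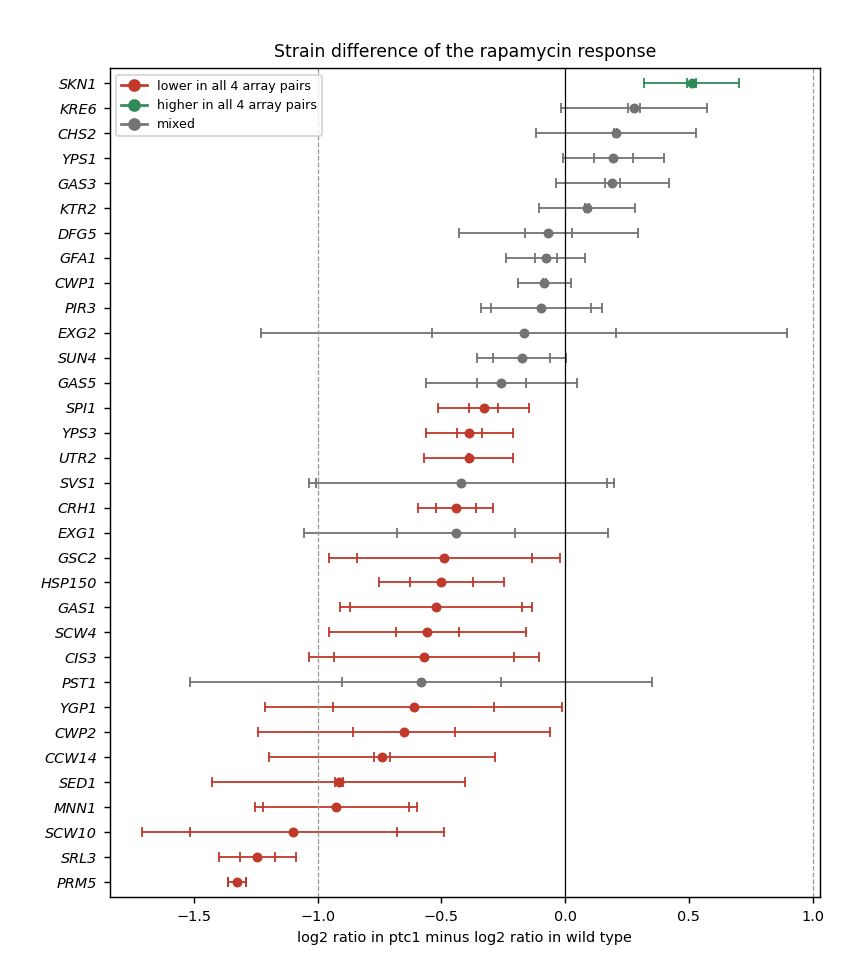
Log2 ratio in ptc1 minus log2 ratio in the wild type (x axis) of the 33 wall genes measured on all 4 arrays, ordered by size. The large point is the difference of the means, ticks are the 4 array-to-array differences, and dashed lines mark a size of 1: 17 genes in red lie below 0 in all pairs and SKN1 in green above.

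By role, among genes measured on all arrays every PIR gene (3 of 3), GPI mannoprotein gene (6 of 6), other wall protein gene (2 of 2) and cross-linking gene (3 of 3) had a lower mean ratio in ptc1, as had 7 of 8 glucan remodelling genes. The mean ratio was lower in ptc1 in 50.4% of all rows, and in 541 of the 646 rows that rose in the wild type. The median difference was −0.50 for PIR genes, −0.62 for GPI genes, −0.52 for other wall proteins, −0.39 for cross-linking genes and −0.35 for glucan remodelling genes. Glucan synthesis genes had a lower ratio in 1 of 3, and chitin, yapsin and mannosylation genes in 1 of 2 each. Of the genes counted as lower, SVS1 (−0.42 ± 0.85), EXG1 (−0.44 ± 0.66), GAS5 (−0.26 ± 0.32), SUN4 (−0.18 ± 0.21), PIR3 (−0.10 ± 0.32), CWP1 (−0.08 ± 0.11), GFA1 (−0.08 ± 0.17) and DFG5 (−0.07 ± 0.37) had differences smaller than their spread and overlapping arrays, so their sign carries little weight. PST1 (−0.58 ± 0.99) and EXG2 (−0.17 ± 1.13) varied too much between arrays for a statement on the strains.

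Related genes were then compared within each array, by subtracting the log2 ratio of the second gene from that of the first. Of 16 pairs, 11 were measured on all 4 arrays, and in 9 of these the difference kept 1 sign on all of them. Some pairs share a gene, as those of the GAS family do, and unrelated pairs were not compared. Over all rows the arrays correlated at r between 0.87 and 0.96, so many unrelated pairs may keep 1 sign too. CRH1 minus UTR2 was 1.74 ± 0.04 in ptc1 and 1.79 ± 0.08 in the wild type. GAS3 minus GAS5 was −1.52 ± 0.01 in ptc1 and −1.96 ± 0.11 in the wild type. In both pairs the genes were held apart by more than 2-fold on every array.

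Some of the pairs are next to each other on their chromosome, by the order of genes in the R64 annotation of the reference strain. HSP150 and CIS3 are such neighbours, and HSP150 minus CIS3 was 1.34 ± 0.16 in ptc1 and 1.27 ± 0.32 in the wild type. PIR1 and PIR3 are neighbours too, and PIR1 minus PIR3 was −3.24 on the ptc1 array with both values, and −1.31 and −0.83 on the wild-type arrays. CWP1 minus CWP2 was −0.56 ± 0.20 in ptc1 and −1.13 ± 0.48 in the wild type, and YPS1 minus YPS3 was −0.37 ± 0.04 in ptc1 and −0.95 ± 0.18 in the wild type. In these 4 neighbouring pairs the genes thus differed in the same order wherever both were measured. Signal shared between related sequences on the array was not tested.

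**Figure D4:**
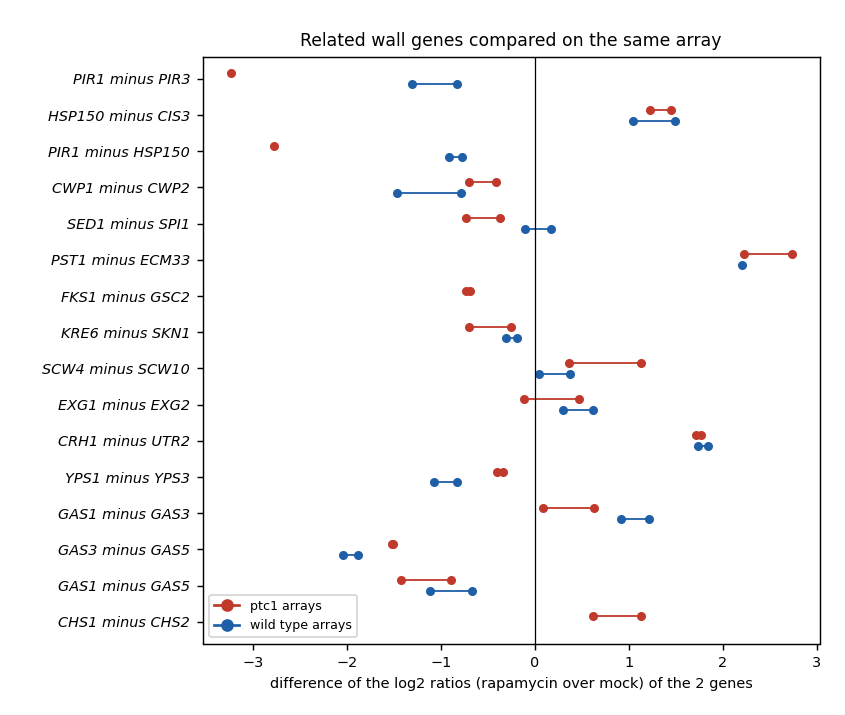
Difference of the log2 ratios of 2 related wall genes on the same array (x axis), for 16 pairs, with ptc1 arrays in red above wild-type arrays in blue. Points are arrays and lines join arrays of a strain: CRH1 minus UTR2 lies near 1.8 in both strains, and SED1 minus SPI1 is below 0 in ptc1 and on both sides of 0 in the wild type.

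Of the further pairs, PST1 minus ECM33 was 2.48 ± 0.36 in ptc1, and 2.21 on the wild-type array with both values. GSC2 exceeded FKS1 in ptc1, where FKS1 minus GSC2 was −0.72 ± 0.03, and the pair had no wild-type value. KRE6 minus SKN1 was −0.48 ± 0.31 in ptc1 and −0.25 ± 0.08 in the wild type, with SKN1 above KRE6 on all 4 arrays. SED1 minus SPI1 was −0.56 ± 0.26 in ptc1 and 0.03 ± 0.20 in the wild type. EXG1 minus EXG2 changed sign between the ptc1 arrays.

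Another 97 wall genes were listed from general knowledge of the wall, in 7 groups outside the 40. Of 87 measured in ptc1, 5 rose and 2 fell, with a median of −0.06, and of 81 measured in the wild type, 10 rose and 2 fell, with a median of 0.12. The ratio was lower in ptc1 in 51 of 80 of these genes, where it was lower in 50.4% of all rows, with a median difference of −0.11. For a strain difference 0 passed the rule in either direction, where 0.921% of all rows passed as lower and 0.964% as higher. Over all rows 12.4% fell in ptc1 and 14.9% in the wild type. Over all rows 10.5% rose in ptc1 and 13.8% in the wild type, so these 97 genes rose no more often than the table as a whole.

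The yapsin gene YPS6 had the highest ratio of these 97, with 2.19 and 2.49 in ptc1 and 1.45 and 2.63 in the wild type. MKC7, another yapsin gene, had −0.95 and −2.45 in ptc1, against −0.16 and −1.36 in the wild type, and fell in ptc1. In the chitin group SKT5, which encodes an activator of chitin synthase III, rose in both strains (1.16 ± 0.20 in ptc1 and 1.49 ± 0.27 in the wild type), and PCM1 and CHS7 rose in the wild type. CHS5 had the lowest wild-type mean of that group, with −0.48 ± 0.04 in ptc1 and −0.92 ± 0.20 in the wild type. Of the mating agglutinin genes, AGA2 rose in both strains (1.01 ± 0.46 in ptc1 and 1.78 ± 0.37 in the wild type) and AGA1 in the wild type (0.74 ± 0.14 in ptc1 and 1.51 ± 0.32 in the wild type).

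The group of 29 mannosylation genes had 22 of 27 members lower in ptc1, where 50.4% of all rows were, with a median difference of −0.19. In 12 of the 27 both ptc1 arrays lay below both wild-type arrays, as in 16.5% of all rows, and in 1 both lay above, as in 18.2%. KTR5 had the highest wild-type mean of it (1.42 ± 0.18 in ptc1 and 1.38 ± 0.15 in the wild type). SEC53, the phosphomannomutase gene that feeds GDP-mannose synthesis, fell in both strains (−1.66 ± 0.51 in ptc1 and −1.24 ± 0.08 in the wild type). In the group of daughter cell separation, which holds the chitinase gene CTS1, no gene of 8 passed the rule in either strain. Over all rows 10.5% rose and 12.4% fell in ptc1, and 13.8% rose and 14.9% fell in the wild type. The extremes of this group in the wild type were ASH1 (0.91 ± 0.23 in ptc1 and 0.84 ± 0.25 in the wild type) and DSE3 (0.19 ± 0.15 in ptc1 and −0.50 ± 0.01 in the wild type). KRE5 rose in the wild type (0.81 ± 0.21 in ptc1 and 1.08 ± 0.21 in the wild type), and GAS2 fell there (−0.91 ± 0.23 in ptc1 and −1.15 ± 0.01 in the wild type). The lowest or highest wild-type means of their groups were also held by SMI1 (−0.30 ± 0.89 in ptc1 and −0.57 ± 0.40 in the wild type), FLO5 (−0.38 ± 0.17 in ptc1 and −0.84 ± 0.36 in the wild type) and UTH1 (−0.32 ± 0.29 in ptc1 and 0.40 ± 0.22 in the wild type).

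In the kinase cascade that controls many of these genes, SLT2 had 1.32 and 1.29 in ptc1, against 2.50 and 2.03 in the wild type, and its pseudokinase paralogue KDX1 averaged 1.33 ± 0.37 in ptc1 and 2.74 ± 0.37 in the wild type. RLM1 had 1.30 and 0.40 in ptc1, against 1.46 and 1.48 in the wild type. The ptc1 values of these 3 genes lay under the wild-type values. All 3 rose in the wild type, and 541 of 646 rows that rose there had a lower mean ratio in ptc1. The cascade as a whole was mixed. Of its 21 listed genes 18 were measured on all arrays. In 12 of them the ratio was lower in ptc1 and in 6 higher, where it was lower in 50.4% of all rows. The median difference was −0.25. In 7 both ptc1 arrays lay below both wild-type arrays, as in 16.5% of all rows, and in 2 they lay above, as in 18.2%. These 2 were the sensor gene WSC1 (0.52 and 0.21 in ptc1, against 0.09 and 0.05 in the wild type) and the phosphatase gene PTP3 (−0.33 and −0.35 in ptc1, against −0.82 and −0.51 in the wild type). KDX1 alone of the 18 passed the rule for a strain difference, which 0.921% of all rows passed as lower.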

How the data were processed

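Rapamycin-treated and mock-treated cells were compared on 4 spotted 2-colour arrays, with cDNA from 8 µg of total RNA. Per the labels, the authors discarded spots below 120 µm in diameter or below 150 intensity units and applied a ratio-of-medians normalization. The deposited values are log ratios per open reading frame, taken as log2. Scanner software and background correction were not given in the sources used here. All columns correlated positively, so signs were kept. Titles and dye fields of the ptc1 arrays name opposite dyes, and each strain mean holds both orientations.

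Rows were used as deposited. The R64 annotation named 5662 by locus tag and 52 by synonym, and 498 stayed unnamed. Means, SDs and calls were computed over all rows with Python 3.11.15 and pandas 2.3.3, after the rule was tested on simulated data. Arrays were numbered in accession order. Members and lists were chosen with earlier results of these data known. Named were all members, PTC1, SLT2, RLM1, KDX1 and, of the other lists, the extremes in the wild type, with WSC1, PTP3 and some further genes past the 2-fold rule chosen after their values were seen. Alternatives were centring, equal spread, natural logarithms, other sizes, single arrays, members on all arrays and, added after seeing the data, averaged rows of a gene. Motif and protein comparisons were not made, since sequences were not used here.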

Additional observations from a re-analysis of the deposited data

Results flagged for a closer look

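SCW10 and MNN1 had log2 ratios below 0 on both ptc1 arrays and above 0 on both wild-type arrays, which 0.942% of the 4669 rows measured on all arrays also had. The difference of ptc1 minus wild type was −1.10 for SCW10, the gene of a glucanase-like wall protein, and −0.93 for MNN1, the gene of an α-1,3-mannosyltransferase. The differences were not tested. For both genes the ptc1 arrays were apart (−0.28 and −1.31 for SCW10, −0.40 and −1.02 for MNN1), while the wild-type arrays were close (0.21 and 0.40 for SCW10, 0.20 and 0.24 for MNN1), and array 2 gave the lower value in ptc1.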

How the results depend on the processing

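Centring each array on its median, scaling to equal spread, restricting to members on all arrays and averaging rows of a gene kept all counts of wall genes within 1.5 times and moved no median by more than the spread of the arrays. Read as natural logarithms, 15 genes rose and 5 fell in ptc1, 6 had a lower strain difference, and the medians were 0.83 in ptc1, 0.96 in the wild type and −0.61 for the difference. At 1.5-fold, 19 rose and 5 fell in ptc1, 20 rose in the wild type, and 8 had a lower difference. At 3-fold, 4 rose and 0 fell in ptc1, 8 rose and 0 fell in the wild type, and 0 had a lower difference. With 1 array of a strain left out, between 1 and 6 fell and 10 and 11 rose in ptc1 (median 0.32 to 0.58), between 1 and 2 fell and 11 and 13 rose in the wild type (median 0.58 to 0.77), and between 2 and 8 of the 33 on all arrays had a lower difference (8 without ptc1 array 1, 5 without wild-type array 1), the median difference running from −0.50 without ptc1 array 1 to −0.20 without ptc1 array 2. The cause of these changes was not tested. Shares of all rows were not worked out for natural logarithms, other sizes or single arrays. The counts there show how the calls depend on the setting, and do not set wall genes against the table. Array numbers follow accession order and were not used as a block. Pairings by the labels' dye fields and titles left the strain means as they were, and their values are given with the other observations.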

Other observations

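The array-to-array spread of the wall genes was uneven. An SD over 0.5 was seen for 9 of 38 measured genes in ptc1 and for 3 of 34 in the wild type, and the share of all rows was not worked out. The median SD of the wall genes was 0.19 in ptc1 and 0.19 in the wild type. Over all rows it was 0.28 in ptc1 and 0.15 in the wild type. In 22 of the 33 wall genes on all arrays, ptc1 array 1 gave the higher value of the ptc1 arrays, as in 2267 of 4669 rows. In 22 of the 33, wild-type array 2 gave the higher value of the wild-type arrays, as in 1973 of 4669 rows. The wall genes thus leaned the other way from the table as a whole in both strains. Across 4669 rows, which share their arrays and are not independent, the difference of ptc1 array 1 minus array 2 correlated with that of wild-type array 2 minus array 1 at r = 0.31, and across the 33 wall genes at r = −0.04.

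The dye fields and the titles of the labels pair the arrays of the strains in opposite ways. Paired by the dye fields, the median SD of the strain difference over all rows was 0.26, and paired by the titles it was 0.36. For the wall genes it was 0.25 by the dye fields and 0.36 by the titles. By the dye fields SED1 had strain differences of −0.93 and −0.90, CCW14 of −0.71 and −0.77, and PRM5 of −1.36 and −1.29, while EXG2 had 0.90 and −1.23. The strain means are the same under both pairings.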
